A study of Homo sapiens with 8 samples.

Results

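The surface molecules MCAM, L1CAM, ALCAM, NCAM1, CD44, ICAM1, NGFR and CSPG4, known from melanoma and neural crest cells, were followed in the human melanoma lines A2058 and C8161, both established cell lines. The members were taken by name and matched to the table on their Entrez gene identifiers, and all 8 were among the 18478 genes listed. Each line was studied with ATF3, an ATF/CREB family factor that cells switch on under stress, brought in by a retrovirus, and as a neomycin control, so the 4 groups were A2058 with ATF3, A2058 with neomycin, C8161 with ATF3 and C8161 with neomycin. The series has 8 RNA-seq libraries, 1 per arm in A2058 and 3 per arm in C8161. The table holds 4 columns of RPKM (reads per kilobase of transcript, scaled to library size), of which the A2058 columns are single libraries and the C8161 columns combine the 3 of an arm. No column has a replicate, so no test was run, no SD can be given, and each difference below describes these columns alone. The sources used here do not say which promoter drove ATF3 or whether the transduced cells were clones or pools.

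Cell adhesion molecules tie a cell to its neighbours or to the matrix and pass signals inward through short cytoplasmic tails. MCAM, L1CAM, ALCAM, NCAM1 and ICAM1 are members of the immunoglobulin superfamily. CD44 is the main receptor for hyaluronan, CSPG4 is a transmembrane chondroitin sulfate proteoglycan, and NGFR is the p75 receptor for neurotrophins. MCAM and CSPG4 were first described as melanoma antigens, and NGFR is widely used to mark neural crest stem cells and melanoma cells with neural crest features.

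The genes lie on 6 chromosomes of GRCh38, with coordinates from RefSeq. MCAM (Entrez gene 4162) spans chr11:119308529-119317130, NCAM1 (4684) chr11:112961420-113278436 and CD44 (960) chr11:35139171-35232402. L1CAM (3897) spans chrX:153861514-153886173, ALCAM (214) chr3:105366909-105576900, ICAM1 (3383) chr19:10271120-10286615, NGFR (4804) chr17:49495293-49515008 and CSPG4 (1464) chr15:75674322-75713466. GENCODE 29 holds 39 transcripts of CD44 and 30 of NCAM1, 2 genes known for alternative splicing, and a value per gene does not separate them. Stretches of 50 bases shared with other genes made up 9.10% of the longest CSPG4 transcript, mostly with the pseudogene CSPG4P13, 7.70% of L1CAM and 0.955% of MCAM, and 0% of the other 5. On the opposite strand, the annotation AC015656.1 overlaps 22.3% of the NGFR exon bases and AC006487.1 overlaps 4.87%, whereas AC011511.5 overlaps 22.0% of those of ICAM1 and AC011511.2 overlaps 1.65%. Opposite overlaps are 6.86% for MCAM (with CBL, at 7.69 to 8.86 RPKM), 6.79% for CSPG4 (AC105020.4), 4.94% for L1CAM (LCA10), 4.33% for NCAM1 (NCAM1-AS1) and 0.84% for CD44 (CD44-AS1). No source used here states the strand setting of the counting, so reads of such partners could be counted in these genes.

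ATF3 binds DNA in pairs with relatives, at cAMP response elements and AP-1 elements, and the promoters of 4 members are printed. They are the 250 bases before the RefSeq start site, 5′ to 3′, from the RefSeq table of GRCh38.p14. Capitals mark a full cAMP response element in MCAM, GC boxes in ALCAM and CD44, and an NF-kB like match and a TATA box in ICAM1. The MCAM window is chr11:119317131-119317380, minus strand, that of ALCAM is chr3:105366659-105366908, plus strand, that of CD44 is chr11:35138921-35139170, plus strand and that of ICAM1 is chr19:10270870-10271119, plus strand.
MCAM: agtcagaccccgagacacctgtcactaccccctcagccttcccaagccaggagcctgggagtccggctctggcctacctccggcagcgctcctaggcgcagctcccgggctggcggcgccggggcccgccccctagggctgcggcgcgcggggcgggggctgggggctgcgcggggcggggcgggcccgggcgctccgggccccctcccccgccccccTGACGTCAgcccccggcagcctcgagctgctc
ALCAM: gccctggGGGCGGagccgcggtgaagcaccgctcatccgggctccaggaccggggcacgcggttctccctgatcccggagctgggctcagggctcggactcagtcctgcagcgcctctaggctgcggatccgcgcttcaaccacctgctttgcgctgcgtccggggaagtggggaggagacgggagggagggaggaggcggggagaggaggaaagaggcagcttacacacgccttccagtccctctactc
CD44: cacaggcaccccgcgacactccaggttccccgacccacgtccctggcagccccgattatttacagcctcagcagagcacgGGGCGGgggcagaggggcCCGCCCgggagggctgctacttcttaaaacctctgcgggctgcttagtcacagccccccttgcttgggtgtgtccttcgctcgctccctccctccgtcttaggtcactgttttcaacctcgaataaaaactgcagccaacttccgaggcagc
ICAM1: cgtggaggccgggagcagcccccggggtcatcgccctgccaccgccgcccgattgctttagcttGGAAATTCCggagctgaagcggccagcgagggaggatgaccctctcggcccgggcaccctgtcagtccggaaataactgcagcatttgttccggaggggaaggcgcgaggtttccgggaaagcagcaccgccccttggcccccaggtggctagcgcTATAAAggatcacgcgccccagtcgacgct

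Promoters of 6 of the 8 genes were found in that table, without NCAM1 and NGFR. L1CAM had 2 windows there, chrX:153875945-153876194 and chrX:153876015-153876264, and that of CSPG4 is chr15:75712849-75713098, all on the minus strand. These lie inside the gene spans given above. The sequence before the outer start of L1CAM and CSPG4 was thus not searched. Both strands were searched for the cAMP response element, TGACGTCA, and for TGACG as its shorter part. The AP-1 element was searched as TGANTCA. An NF-kB like pattern was spelled GGNNNTTCC in this search. GC boxes were read as GGGCGG, E-boxes as CANNTG and TATA boxes as TATAAA. The MCAM promoter held TGACGTCA at positions −32 to −25 from the start, and the other 5 held neither it nor TGACG. Among all 35116 promoters of this length, 1.65% held TGACGTCA and 21.2% held TGACG, which lies within it. None of the 6 held TGANTCA, which 6.57% of all promoters held. The ICAM1 promoter held GGAAATTCC at −186 to −178, a pattern matched in 17.1% of all promoters and also in that of CSPG4, and TATAAA at −30 to −25, found in 10.7%. GC boxes, found in 42.6% of all promoters, were present in all 6. E-boxes, found in 61.8% of all promoters, were present in 5 of the 6, all but that of CD44. A match describes the letters and does not show binding, and no binding was measured here.

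The columns summed to 470633 to 481302 RPKM, and 10866 to 11753 genes reached 1 RPKM in each. ATF3 itself was at 62.6 RPKM in C8161 with ATF3 against 4.76 RPKM in its control, and at 4.71 against 1.22 RPKM in A2058. Low values of the A2058 columns fell on steps of whole reads that place both at about 17700000 reads (16700000 to 18200000 with other bounds on the values used). By that estimate and the longest GENCODE transcript, the A2058 control value of NGFR rests on about 177 reads, that of ALCAM on 712 and that of MCAM on 16084. The depth of the combined C8161 columns could not be read from such steps. Of 10 melanocyte lineage markers, 9 reached 1 RPKM in both A2058 columns, with summed levels of 1516 and 1552 RPKM. In C8161 the sums were 1.76 and 1.98 RPKM, with MITF at 0.95 and 1.02 RPKM and TYR listed at 0, so the melanocyte markers that define the lineage were nearly absent from the line labelled melanoma.

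Each line had its own order of surface molecules, and both of its columns had that order. In A2058 it ran MCAM, CD44, CSPG4, L1CAM, ICAM1, NCAM1, ALCAM and NGFR. In C8161 it ran CD44, ALCAM, MCAM, ICAM1, CSPG4, NCAM1, L1CAM and NGFR. MCAM made up 44.3% of the summed RPKM of the 8 genes in the A2058 control and 10.2% in the C8161 control. CD44 went from 20.6% to 52.6% and ALCAM from 2.03% to 28.1% between the same columns. The sum itself was 421 RPKM in the A2058 control and 375 RPKM in the C8161 control, so the make-up differed far more than the total. The closest neighbours in the order were ICAM1 and CSPG4 in the C8161 control, 1.18-fold apart, and CD44 and CSPG4 in the A2058 control, 1.21-fold apart. With no replicate spread, these gaps can be set beside the 1.17-fold gap between the arms for NGFR in C8161, the widest of any member in either line, which comes from values of 0.06 and 0.07 RPKM.

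**Figure D1:**
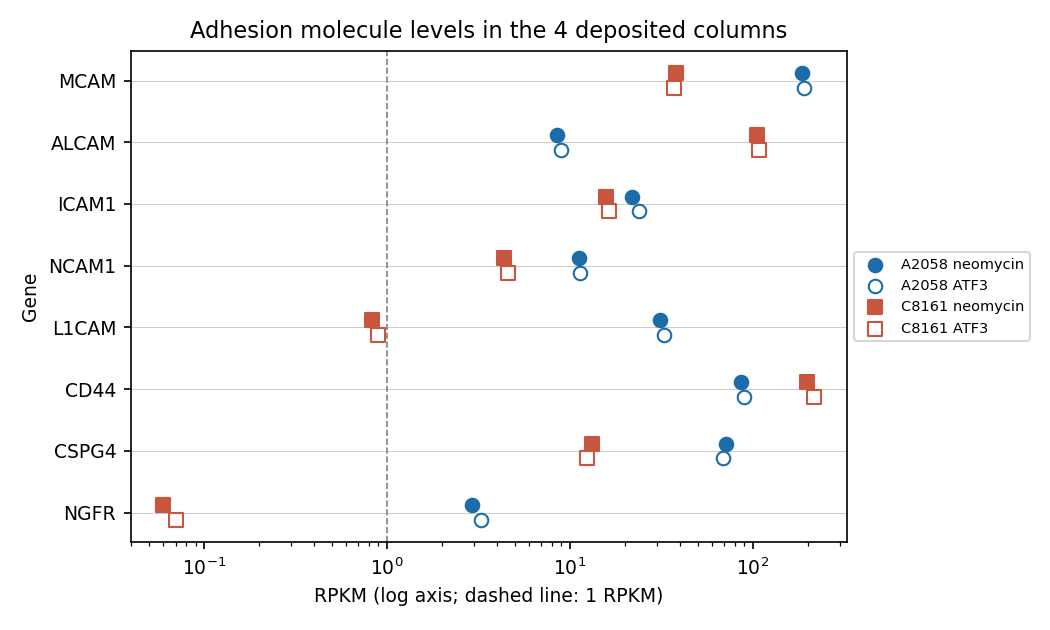
RPKM of the 8 genes (log axis, dashed line at 1 RPKM) in the 4 columns; circles are A2058 and squares C8161, filled for neomycin and open for ATF3. The filled and open marks of a line lie side by side, whereas the lines are apart for every gene and nearest for ICAM1. NGFR in C8161 lies at 0.06 and 0.07 RPKM.

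The difference between the lines is read from the neomycin columns and from the ATF3 columns, which share no library. It was taken as log2(RPKM + 1) in C8161 minus that in A2058, over genes that reached 1 RPKM in either column, and 2-fold on that scale was the size used for a call. Genes under 1 RPKM in 1 line, among them L1CAM and NGFR in C8161, thus entered through the other line alone, here and in the lists below. In the neomycin columns 7 of 8 members were past 2-fold, against 30.0% of the 12372 genes compared, with 5 lower in C8161 (20.7% of all genes) and 2 higher (9.36%). In the ATF3 columns the counts were again 7, 5 and 2, against 31.3%, 21.4% and 9.92% of 12381 genes. The median difference of the 8 was −1.54 in the neomycin columns, beside −0.19 over all genes. Quantile normalization moved the median of all genes to 0.08, and the share of higher among all calls from 31.2% to 47.4%, so the lean over all genes depends on scaling. After it 2 members were higher and 4 lower past 2-fold in the neomycin columns. The members were chosen by name with results of these data known, and these counts are a description. The line and the combining of libraries cannot be told apart here.

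Among the immunoglobulin superfamily molecules, MCAM (CD146, MUC18), which binds laminins and is a long-used marker of melanoma progression, was at 187 RPKM in the A2058 control and 191 RPKM with ATF3. In C8161 it was at 38.2 RPKM in the control and 37.3 RPKM with ATF3. Both A2058 values were above both C8161 values, 4.89-fold in the controls and 5.11-fold in the ATF3 columns. MCAM was the most abundant of the 8 in A2058 and stood above 98.1% of all genes in the control.

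L1CAM, a homophilic adhesion molecule of neurons that also promotes invasion of tumour cells, was at 31.3 RPKM in the A2058 control and 32.8 RPKM with ATF3. In C8161 it was at 0.83 RPKM in the control and 0.90 RPKM with ATF3, under 1 RPKM in both columns. The lines differed 37.7-fold in the controls, which on the log2(RPKM + 1) scale, where low values are damped, was a difference of −4.14.

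ALCAM (CD166), which binds itself and the lymphocyte receptor CD6, ran the other way. It was at 8.56 RPKM in the A2058 control and 8.90 RPKM with ATF3, and at 105 RPKM in the C8161 control and 108 RPKM with ATF3. C8161 was 12.3-fold higher in the controls and 12.2-fold higher in the ATF3 columns. Within a column, MCAM exceeded ALCAM 21.8-fold in the A2058 control, whereas ALCAM exceeded MCAM 2.75-fold in the C8161 control.

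NCAM1 (CD56), a neural adhesion molecule that can carry polysialic acid, was at 11.3 RPKM in the A2058 control and 11.4 RPKM with ATF3. In C8161 it was at 4.38 RPKM in the control and 4.58 RPKM with ATF3. Its difference was −1.19 in the controls and −1.15 in the ATF3 columns, but −0.88 in both after quantile normalization, short of 2-fold. The polysialyltransferases ST8SIA2 and ST8SIA4 were under 1 RPKM in all 4 columns, at 0.67 RPKM for ST8SIA4 in the A2058 control and 0.42 RPKM in the C8161 control. Of 5 genes listed for this modification, CMAS and NANS of sialic acid synthesis could be compared, and neither passed 2-fold (list median 0.59, beside −0.19 over all genes). With ATF3 neither passed 1.2-fold in C8161 (median 0.05) or A2058 (0.06).

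ICAM1 (CD54), the endothelial and tumour ligand of leukocyte integrins and an NF-kB target, differed least. It was at 21.9 RPKM in the A2058 control, 23.9 RPKM with ATF3, 15.8 RPKM in the C8161 control and 16.4 RPKM with ATF3. Both A2058 values were above both C8161 values, with differences of −0.45 and −0.52 that stayed short of 2-fold under each setting tried. It was the single member not past 2-fold.

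CD44, the hyaluronan receptor, was at 86.6 RPKM in the A2058 control and 89.7 RPKM with ATF3, and at 197 RPKM in the C8161 control and 217 RPKM with ATF3. Both C8161 values were above both A2058 values, 2.27-fold in the controls and 2.42-fold in the ATF3 columns. CD44 was the most abundant of the 8 in C8161.

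CSPG4 (NG2, the high molecular weight melanoma antigen), which helps integrins engage the matrix, was at 71.8 RPKM in the A2058 control and 68.4 RPKM with ATF3. In C8161 it was at 13.3 RPKM in the control and 12.5 RPKM with ATF3. A2058 was thus 5.39-fold and 5.48-fold higher. Both A2058 values were above both C8161 values.

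NGFR (CD271), the p75 neurotrophin receptor, was at 2.93 RPKM in the A2058 control and 3.28 RPKM with ATF3, the lowest of the 8. In C8161 it was at 0.06 RPKM in the control and 0.07 RPKM with ATF3. The fold between controls was 48.8, and the rounding of the deposited values to 2 decimals alone allows 45.0 to 53.4. A gene used as a neural crest marker was therefore low in one line and near 0 in the other.

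**Figure D2:**
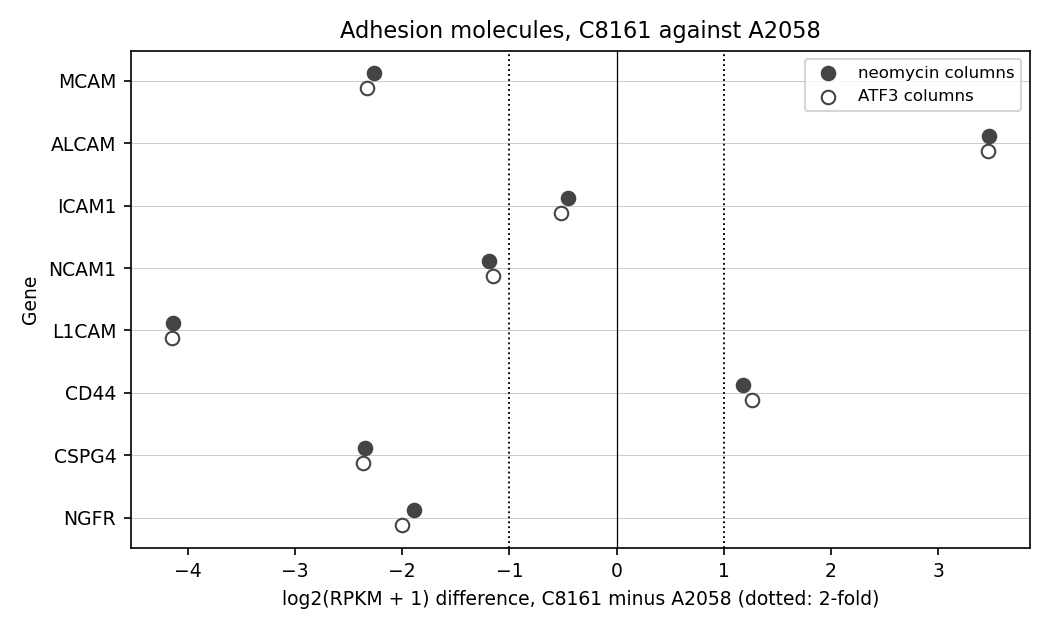
Difference in log2(RPKM + 1), C8161 minus A2058, for the 8 genes, with filled marks for the neomycin columns and open marks for the ATF3 columns; dotted lines mark 2-fold. ALCAM (3.47) and CD44 (1.18) lie to the right in the neomycin columns, ICAM1 lies inside the dotted lines, and the marks of each gene nearly coincide.

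Set beside the 500 genes nearest in level, MCAM, L1CAM, ALCAM and CSPG4 lay outside the central 95% of line differences in the neomycin columns, and NCAM1, CD44, ICAM1 and NGFR lay inside. For NGFR, at 2.93 RPKM in A2058, no lower value in C8161 could pass its range, which started at −2.14. Its place inside thus follows from the log2(RPKM + 1) scale and says nothing about the size of its fold. The range for the neighbours of ALCAM ran from −2.17 to 1.68, and 1.2% of them differed more. The range describes the spread across genes, and 23% of the neighbours of NCAM1 differed more than it did.

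Whether introduced ATF3 altered these molecules was read within each line, with 1.2-fold on the log2(RPKM + 1) scale as the size for a call. The lines were not alike in ATF3 itself, which was 13.1-fold higher in C8161 with ATF3 and 3.86-fold higher in A2058. The 4.71 RPKM of A2058 with ATF3 was near the 4.76 RPKM of the C8161 control. In C8161, 0 of the 6 members at 1 RPKM or more were past it, against 4.91% of 10941 genes (2.19% higher, 2.71% lower). In A2058, 0 of 8 were past it, against 3.53% of 11883 genes (2.02% higher, 1.51% lower). All of these differences lay inside the central 95% of the 500 genes nearest in level. The median log2 difference was 0.05 in both lines, beside 0.01 over all genes in C8161 and 0.00 in A2058. Without replicates, differences smaller than the spread between cultures cannot be separated from it.

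The widest of these differences were small and are given as values. CD44 in C8161 had 217 RPKM with ATF3 and 197 RPKM in the control, 1.10-fold, with a log2 difference of 0.14, and 28% of the 500 nearest genes differed more. In A2058 CD44 was 1.04-fold higher with ATF3. ICAM1 in A2058 was at 23.9 against 21.9 RPKM, 1.09-fold, with 12.8% of its neighbours differing more, and in C8161 it was 1.04-fold higher. NGFR in A2058 was 1.12-fold higher with ATF3, about 198 reads against 177 by the estimate above.

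CSPG4 was lower with ATF3 in both lines, at 68.4 against 71.8 RPKM in A2058 (log2 difference −0.07) and at 12.5 against 13.3 RPKM in C8161 (−0.09). In C8161 the value turned to 0.05 once trends of the difference with GC content and transcript length were removed, so its direction there depends on processing. MCAM, with the cAMP response element shown above, was 1.02-fold higher with ATF3 in A2058 and 1.02-fold lower in C8161. ALCAM, L1CAM and NCAM1 were 1.01-fold to 1.08-fold higher with ATF3 in each line, L1CAM in C8161 from 0.83 to 0.90 RPKM. The log2 difference in C8161 minus that in A2058 passed 1.2-fold for 0 of 6 members, against 10.9% of 10331 genes (4.85% higher, 6.08% lower), and ran from −0.07 (ICAM1) to 0.09 (CD44).

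**Figure D3:**
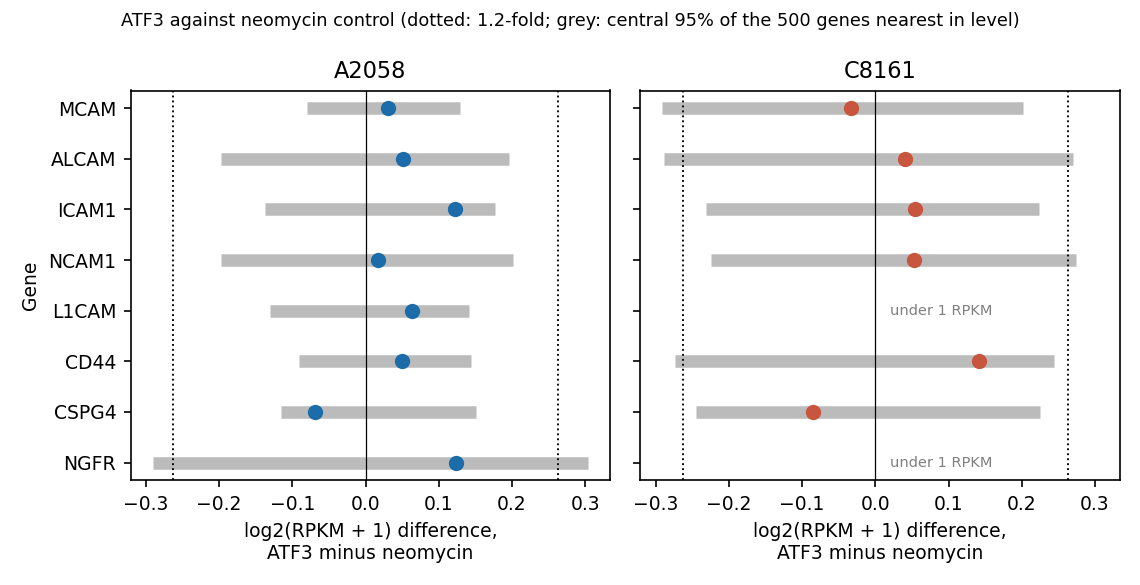
Difference in log2(RPKM + 1), ATF3 minus neomycin, for each gene in A2058 (left) and C8161 (right); dotted lines mark 1.2-fold and grey bars the central 95% of the 500 genes nearest in level. All points lie inside the dotted lines and inside their bars; L1CAM and NGFR were under 1 RPKM in C8161 and have no point.

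Among the immunoglobulin superfamily relatives that could be compared, more were lower in C8161 than higher. Of 37 listed, 36 were in the table and 24 could be compared between the neomycin columns. Lower in C8161 past 2-fold were 14 (20.7% of all genes) and higher were 2 (9.36%), with a median of −1.08 beside −0.19 over all genes. Of the lower genes, only BCAM (2.56 RPKM) and F11R (6.14 RPKM) reached 1 RPKM in the C8161 control. The others entered the comparison through A2058 alone, where only a lower value in C8161 was possible. With a minimum of 5 RPKM, 8 of 18 were lower. With quantile normalization 11 were lower, 2 were higher and the median was −0.82 beside 0.08. CEACAM1, which mediates homophilic adhesion, was at 51.4 RPKM in the A2058 control and 0.13 RPKM in the C8161 control, and NRCAM, a neuronal relative of L1CAM, was at 19.6 against 0.11 RPKM. The L1 relative CHL1 was at 1.35 RPKM in the A2058 control and the NCAM1 relative NCAM2 at 1.12 RPKM, and both were listed at 0 in the C8161 control. CADM1 was at 26.8 against 0.74 RPKM. The 2 higher genes were ICAM2, an integrin ligand like ICAM1, at 14.7 RPKM in C8161 against 1.67 RPKM, and PVR, the poliovirus receptor, at 56.8 against 27.1 RPKM. PVR was just past 2-fold at 1.04 and short of it in the ATF3 columns at 0.83, where 1 relative of 25 was higher and 14 were lower. BCAM, F11R, NCAM2, CHL1, CADM1, ICAM2 and PVR were chosen after their values were seen.

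**Figure D4:**
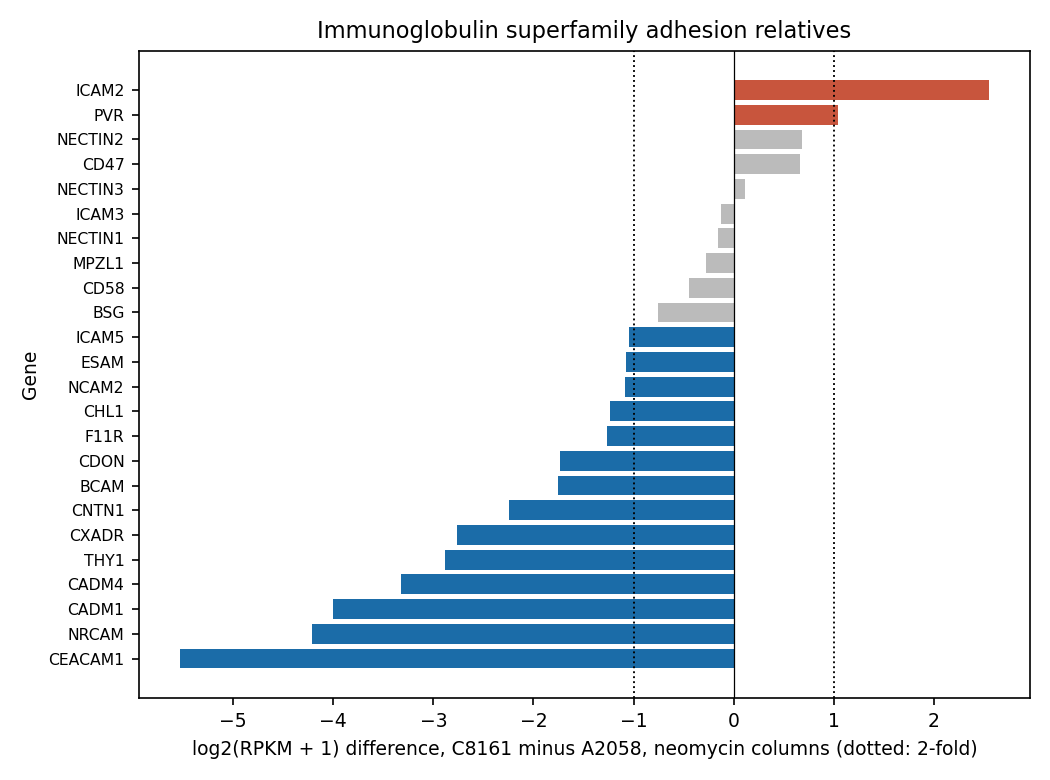
Difference in log2(RPKM + 1), C8161 minus A2058 in the neomycin columns, for the 24 immunoglobulin superfamily relatives that could be compared; dotted lines mark 2-fold, blue bars are lower and red bars higher past it. The 14 blue bars reach −5.53 (CEACAM1), and the 2 red bars are ICAM2 and PVR. Among the blue bars only BCAM and F11R reached 1 RPKM in C8161.

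With ATF3 none of the 13 relatives compared in C8161 passed 1.2-fold (4.91% of all genes, list median 0.03 beside 0.01), and 1 of 24 did in A2058 (3.53% of all genes, list median 0.07 beside 0.00), which is near the share over all genes. That one, named after its value was seen, was ESAM, an endothelial adhesion molecule, at 2.73 against 1.70 RPKM, with 0.28 RPKM in both C8161 columns. In C8161 the widest values were those of CD47, the SIRPA ligand (19.5 RPKM with ATF3 against 16.5), ICAM3 (4.15 against 4.97) and the metalloprotease inducer BSG (232 against 265.5). Removal of GC and length trends took the log2 difference of ICAM3 from −0.21 to −0.08 and that of BSG from −0.19 to −0.06. That of CD47 went from 0.23 to 0.18.

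Genes around CD44 were mixed between lines. Of 10 hyaluronan-related genes compared, 1 was higher in C8161 past 2-fold (9.36% of all genes) and 3 lower (20.7%), with a median of −0.65 beside −0.19 over all genes. SRGN, the proteoglycan serglycin, which can bind CD44, was at 247 RPKM in the C8161 control against 2.64 RPKM, and CEMIP, which takes part in hyaluronan breakdown, was at 0.07 against 41.9 RPKM. The synthases HAS1, HAS2 and HAS3 were under 1 RPKM in all columns. With ATF3 in C8161, 1 of 8 was past 1.2-fold (4.91% of all genes, list median −0.04), VCAN, the hyaluronan-binding proteoglycan versican, at 3.28 against 2.39 RPKM, whereas HMMR was at 21.6 against 18.9 RPKM and HYAL2 at 20.0 against 22.7 RPKM. In A2058, 2 of 11 were past it (3.53% of all genes, list median 0.07), SRGN at 3.79 against 2.64 RPKM and the hyaluronan-binding TNFAIP6 at 1.16 against 0.77 RPKM, both higher with ATF3 and named after their values were seen, whereas SRGN in C8161 was at 221 against 247 RPKM. SRGN and TNFAIP6 were low in A2058, in single libraries, and a minimum of 5 RPKM leaves both out there.

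The proteins that link CD44, ICAM1 and L1CAM tails to the cytoskeleton were measured through their genes. Of 15 compared between the controls, 2 were higher in C8161 past 2-fold (9.36% of all genes) and 2 lower (20.7%). The median of −0.12, beside −0.19 over all genes, turned to 0.26 beside 0.08 after quantile normalization. EZR (ezrin) was higher in C8161, at 182 against 49.0 RPKM, as was MSN (moesin), at 369 against 131 RPKM. EPB41L3, a band 4.1 protein, was lower, at 0.10 against 39.4 RPKM, as was ANK3, an ankyrin that binds L1CAM, at 0.86 against 2.75 RPKM (with a difference of −1.01, which was short of 2-fold after quantile normalization or centring). In the ATF3 columns ANK3 was short of 2-fold at −0.96. There 2 of 15 linkers were higher (9.92% of all genes) and 1 lower (21.4%), with a median of 0.16 beside −0.18. In C8161, MSN was at 460 RPKM with ATF3 against 369 RPKM, the 1 of 13 linkers past 1.2-fold (4.91% of all genes, list median 0.08). RDX (radixin) was at 32.8 against 29.6 RPKM and EPB41L2 at 36.7 against 33.3 RPKM. In A2058, 0 of 15 passed it (3.53% of all genes, list median −0.04), and MSN was at 135 against 131 RPKM. ANK3 was chosen after its value was seen.

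Sheddases cut CD44, L1CAM, ALCAM and NGFR from the surface. Of 20 sheddase, gamma-secretase and TIMP genes, 1 was higher (9.36% of all genes) and 4 lower (20.7%) past 2-fold in the C8161 control, shares near or below those over all genes. After quantile normalization 3 were higher and 3 lower, and the median of −0.13 turned to 0.02. ADAM19 was at 24.2 against 2.71 RPKM and the inhibitor TIMP3 at 15.9 against 98.8 RPKM. ADAM10 and ADAM17, the main sheddases of these molecules, were at 25.2 and 16.7 RPKM in the C8161 control and at 17.0 and 13.5 RPKM in the A2058 control, and were named after their values were seen. With ATF3 in C8161, MMP2 was at 31.2 against 23.7 RPKM and TIMP3 at 19.5 against 15.9 RPKM, the 2 of 19 past 1.2-fold (4.91% of all genes, list median 0.02), whereas TIMP1 was at 117 against 139 RPKM. In A2058, 0 of 20 passed it (3.53% of all genes, list median 0.00), and MMP2 was at 24.5 against 24.7 RPKM.

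Around NGFR, 5 of 17 neurotrophin and receptor partner genes were higher (9.36% of all genes) and 6 lower (20.7%) past 2-fold in the C8161 control. Their median was −0.12 beside −0.19 over all genes, and 0.06 beside 0.00 after centring. The sortilin relative SORCS1 was listed at 0 against 7.19 RPKM. SORT1, the sortilin that pairs with NGFR, was at 3.67 against 27.6 RPKM. The neurotrophin BDNF was at 10.0 against 1.86 RPKM, and the neurotrophin NTF3 was at 2.22 RPKM in the C8161 control and listed at 0 in the A2058 control. SORT1, BDNF and NTF3 were chosen after their values were seen. With ATF3 in C8161, BEX3, an NGFR-binding protein, was at 155 against 125 RPKM and TRAF4 at 12.5 against 15.45 RPKM, the 2 of 13 past 1.2-fold (4.91% of all genes, list median 0.04). TRAF4 was short of it after removal of GC and length trends, and IRAK1 was at 112 against 126 RPKM. In A2058, 0 of 15 passed it (3.53% of all genes, list median 0.00).

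Of 22 ligands and partners of MCAM, L1CAM and CSPG4 compared, 3 were higher (9.36% of all genes) and 5 lower (20.7%) past 2-fold in the C8161 control, shares near those over all genes. The median was −0.01 beside −0.19, and 5 were higher and 5 lower after quantile normalization, with a median of 0.04 beside 0.08. After centring 6 were higher. The collagen VI chain COL6A2, a CSPG4 ligand, was at 44.7 against 4 RPKM. ITGB3, the integrin beta 3 subunit, was at 2.06 against 41.6 RPKM, though 56.2% of its longest transcript is shared with a neighbouring annotation and the value is uncertain. None of 21 passed 1.2-fold with ATF3 in C8161 (4.91% of all genes, list median −0.02), and none of 20 did in A2058 (3.53% of all genes, list median 0.01). In C8161, FN1 was at 101 against 117 RPKM, ITGA5 at 71.8 against 79.7 RPKM and LGALS1 at 1085 against 1201 RPKM (its difference of −0.15 turned to 0.02 after removal of GC and length trends).

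Of 16 regulators and ligands of ICAM1 compared, 5 were higher (9.36% of all genes) and 3 lower (20.7%) past 2-fold in the C8161 control, ICAM1 itself being short of it. The median was 0.22 beside −0.19 over all genes. The integrin beta 2 subunit ITGB2 was at 5.43 against 0.04 RPKM, and the NF-kB feedback gene TNFAIP3 was at 5.09 against 22.5 RPKM. The receptor TNFRSF1A was at 192 against 52.3 RPKM and the inhibitor NFKBIA at 44.2 against 14.5 RPKM, both named after their values were seen. With ATF3 in C8161, TNFAIP3 was at 6.71 against 5.09 RPKM and ITGB2 at 4.33 against 5.43 RPKM, the 2 of 16 past 1.2-fold (4.91% of all genes, list median 0.02). ITGB2 was short of it after removal of GC and length trends, and CEBPB was at 26.9 against 31.9 RPKM. None of 15 passed it in A2058 (3.53% of all genes, list median 0.00).

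Factors and receptors of the neural crest and of melanoma states also differed between the lines. Of 21 compared, 8 were higher (9.36% of all genes) and 9 lower (20.7%) past 2-fold in the C8161 control, with a median of −0.27 beside −0.19. SOX10, which directs the neural crest and melanocyte lineage, was at 0.06 against 254 RPKM, and EGFR, a receptor often high in dedifferentiated melanoma, was at 46.2 against 0.07 RPKM. In the same control columns, AXL was at 280 against 11.4 RPKM, TFAP2A at 0.85 against 43.1 RPKM and FOXD3 was listed at 0 against 7.09 RPKM, chosen after their values were seen. With ATF3 in C8161, SNAI2 was at 16.0 against 21.0 RPKM and SOX9 at 5.61 against 4.48 RPKM, the 2 of 13 past 1.2-fold (4.91% of all genes, list median 0.03). SOX9 was short of it after quantile normalization, and FOSL1 was at 560 against 489 RPKM (short of 1.2-fold at 0.20, past it at 0.32 after removal of GC and length trends). In A2058, 1 of 18 passed it (3.53% of all genes, list median −0.02). It was SOX2, chosen by its value, at 6.42 RPKM in the control and 5.15 RPKM with ATF3.

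Markers of other cell types that carry some of these molecules were read in the same columns. MCAM and ICAM1 are also endothelial, and of 11 endothelial markers 3 reached 1 RPKM in each A2058 column and 4 in each C8161 column, with summed levels of 54.2 to 58.5 RPKM and 107 to 109 RPKM. PECAM1, VWF, KDR and TEK, which define endothelium, reached at most 0.34 RPKM in any column. CDH5 (VE-cadherin), which also defines it, was at 0.04 and 0.05 RPKM in A2058 but at 8.86 RPKM in the C8161 control and 18.1 RPKM with ATF3, and TIE1 (67.2 RPKM) and ROBO4 (20.5 RPKM) made up most of the C8161 control sum. EGFL7 went the other way, at 54.35 RPKM in the A2058 control, most of that sum, against 9.75 RPKM in the C8161 control. ESAM did so too, at 1.70 against 0.28 RPKM. The part of these markers in the levels of the members was not tested. Of 8 glial and Schwann cell markers besides L1CAM and NGFR, 7 reached 1 RPKM in A2058 and 2 in C8161, with sums of 293 to 302 RPKM and 24.6 to 28.9 RPKM. These markers were higher in the line with more L1CAM, NGFR and NCAM1, and their part in that difference was not tested. Of 9 leukocyte markers measured, 2 or 3 reached 1 RPKM in each column, with sums of 35.9 to 43.1 RPKM. PTPRC, which defines leukocytes, reached at most 0.43 RPKM. CD68 made up most of the sums at 29.03 to 38.17 RPKM, though 92.6% of its longest transcript is shared with another annotation. ITGB2 was at 5.43 and 4.33 RPKM in C8161, and LYZ at 1.28 and 2.07 RPKM in A2058. Of 10 fibroblast markers 3 reached 1 RPKM in A2058 and 1 in C8161, with sums of 20.3 to 22.4 RPKM and 3.21 to 3.46 RPKM. Of 8 keratinocyte markers measured, KRT5 and KRT14 reached at most 0.36 RPKM, and sums of 163 to 168 RPKM in C8161 against 32.3 to 33.9 RPKM in A2058 came mostly from SFN in C8161 and KRT10 in A2058. The single markers named here were chosen after their values were seen, as were MITF and TYR above.

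For each member spanning at least 1 on the log2(RPKM + 1) scale, the genes with the nearest profile were sought over the 4 columns among 10659 candidates, by Euclidean distance of centred values. The nearest were GLMP and PLB1 for MCAM (distances 0.01 and 0.03), BCAS3 and RBPMS2 for L1CAM (0.03 and 0.05), SSR3 and FGF5 for ALCAM (0.03 and 0.06), and ORC5 and TMEM94 for NCAM1 (0.01 and 0.02). They were RNF168 and KLF7 for CD44 (0.02 and 0.03), THBS3 and PXMP4 for NGFR (0.01 and 0.03) and COL4A2 and DUSP10 for CSPG4 (0.03 and 0.03). The scale damps low values, so a near profile need not have a like fold in RPKM. Between the A2058 and C8161 controls MCAM went from 187 to 38.2 RPKM and GLMP from 145 to 29.3 RPKM, but PLB1 from 4.59 to 0.14 RPKM. NGFR went from 2.93 to 0.06 RPKM and THBS3 from 6.32 to 0.97 RPKM. The measure rests on 4 columns from 2 lines, and ICAM1, with a span of 0.57, was left out.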

How the data were processed

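RNA-seq of total RNA from A2058 and C8161 melanoma cells, with introduced ATF3 or a neomycin control, was analysed from 1 deposited table. The authors deposited RPKM with 2 decimals, per the file headers. Bowtie2, RSEM and hg38 come from the submitters' processing notes, which state no versions. Whether the combined C8161 columns are means or pooled reads is not stated there. Symbols came from RefSeq genes of GRCh38.p14 (18156 identifiers matched, 322 did not), and transcript length, GC content and shared sequence from GENCODE 29.

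Differences were computed in Python 3.11.15 on log2(RPKM + 1), with a minimum of 1 RPKM in 1 of the columns compared, and the calculation was tested on simulated data. Each pathway list was described by counts and median beside all genes, and each marker list by counts and sums, in place of a test. The A2058 depth was estimated from whole-read steps, using transcript lengths between 400 and 3000 bases. The genes named are all members, at most 3 per list by C8161 ATF3 difference and at most 2 by line difference (mean of 2 RPKM or more), the 2 nearest profiles, and those marked as chosen after their values were seen. The members, lists and call sizes were chosen with earlier results of these data known. Alternatives were a pseudocount of 0.1, no minimum, a minimum of 5 RPKM, quantile normalization, centring on the median difference, and lowess removal of GC and length trends. Protein sequences were not used here, and some genes that this rule names are not reported here.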

Additional observations from a re-analysis of the deposited data

Results flagged for a closer look

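MCAM had opposite directions with ATF3 in the 2 lines. Its log2(RPKM + 1) difference was 0.03 in A2058 and −0.03 in C8161, so the value in C8161 minus that in A2058 was −0.0645. With 1 value per arm this was not tested. The A2058 value was −0.01 after quantile normalization and the C8161 value 0.02 after removal of GC and length trends, so neither direction held under every setting.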

How the results depend on the processing

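The counts of members past 1.2-fold with ATF3 were 0 in both lines under all 6 alternatives. The counts between lines (2 higher, 5 lower) stayed within 1.5 times under the 5 alternatives run for them. NCAM1 was short of 2-fold after quantile normalization (−0.88 in both pairs of columns) and, in the ATF3 columns, after centring (−0.97). In C8161 with ATF3, removal of GC and length trends moved MCAM to 0.02 and CSPG4 to 0.05. Of the list genes, it took HYAL2 from −0.18 to −0.05, IRAK1 from −0.17 to −0.04 and CEBPB from −0.24 to −0.05. MMP2 went from 0.38 to 0.45. The same removal moved the calls over all genes from 2.19% higher and 2.71% lower to 3.27% and 0.663%. A pseudocount of 0.1 took NGFR between controls from −1.89 to −4.24. A minimum of 5 RPKM left NGFR out of each comparison and NCAM1 out of the C8161 arms. Leaving out replicates could not be run, since each arm has 1 column. No paired analysis was possible because the columns carry no replicate numbers.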
